A study of Mus musculus with 21 samples.

Results

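The change in gene expression from D4 to D6 of an untreated mouse motor neuron differentiation was followed in 6 of the 21 RNA-seq libraries of the series, namely the 3 biological replicates labelled D4 and the 3 labelled D6 that received no GSKJ4. The remaining libraries, from the intermediate times D4H8 and D5 and from GSKJ4-treated cultures of D4H8, D5 and D6, served as follows: untreated D4H8 and D5 entered the fit, where they share in the filter and the estimate of the spread, and dated the switched genes, and treated D6 was used to look those genes up after GSKJ4, an inhibitor of the histone H3K27 demethylases Kdm6a and Kdm6b. All cultures started from wild-type C57BL/6 embryonic stem cells kept on growth-arrested fibroblast feeders. They were aggregated into embryoid bodies, received retinoic acid (RA) and SAG, a Sonic hedgehog pathway agonist, from D2, and carried no engineered allele or reporter that the sources describe. DAPT, a γ-secretase inhibitor that blocks Notch cleavage, was added at D4 and kept to D6, while RA and SAG were left out of the medium from D5. Time in culture, DAPT and the end of RA and SAG therefore differ together between D4 and D6, and their parts cannot be told apart. The libraries are whole cultures with no sorting step, so fewer cells of a type and less RNA per cell cannot be told apart either. The labels call the cells differentiated motor neurons in every library, D4 included, and the markers described further down separate D4 from D6.

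In the ventral spinal cord, motor neuron progenitors divide under Sonic hedgehog and RA and carry the transcription factors Olig2, Pax6 and Sox1. When Notch signalling drops they leave the cell cycle, take up the homeodomain factors Isl1, Lhx3 and Mnx1, extend an axon and prepare to release acetylcholine. A neuron differs from its progenitor also in what it no longer needs, since DNA replication, spindle assembly, nucleotide supply and ribosome production serve dividing cells above all.

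The deposited table held whole-number counts for 55400 genes. Library totals were 16231085 to 22725856 counts at D4 and 15679410 to 16326155 at D6. Two-sided edgeR quasi-likelihood tests with Benjamini-Hochberg adjustment, fitted on the 12 untreated libraries, gave every adjusted p below. A gene is called higher or lower when its adjusted p was under 0.05. Levels are CPM, the counts of a gene scaled to a common total with TMM-adjusted library sizes, and log2 differences are D6 minus D4 from the fit. The biological coefficient of variation was 0.200. Differences between replicates touch many values. D6 replicate 1 had the lowest summed levels of cell cycle and of pluripotency genes among the D6 libraries, as described beside those lists. D4 replicate 1 had 4.0004% of counts in mitochondrially encoded proteins, against 2.034% and 1.7065% in D4 replicates 2 and 3. Its sum of ribosome biogenesis genes was 14254.9 CPM, against 11169.7 and 10571.5 in those libraries and 2852 to 3979.8 at D6. It also had the lowest D4 sum of pluripotency genes.

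Most of the measured transcriptome moved between D4 and D6. Of 17519 genes with enough counts to test, 5761 (32.9%) were higher and 5427 (31.0%) lower at D6, and 6331 (36.1%) were called in neither direction. The median log2 difference was −0.04 over all tested genes, 1.51 over those called higher and −1.18 over those called lower. Tested against a 2-fold change rather than against none, 2965 genes (16.9%) were higher and 1712 (9.77%) lower. An upper-quartile scaling in place of TMM shifted all log2 differences by −0.15 and turned the balance to 5144 higher and 6342 lower.

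**Figure D1:**
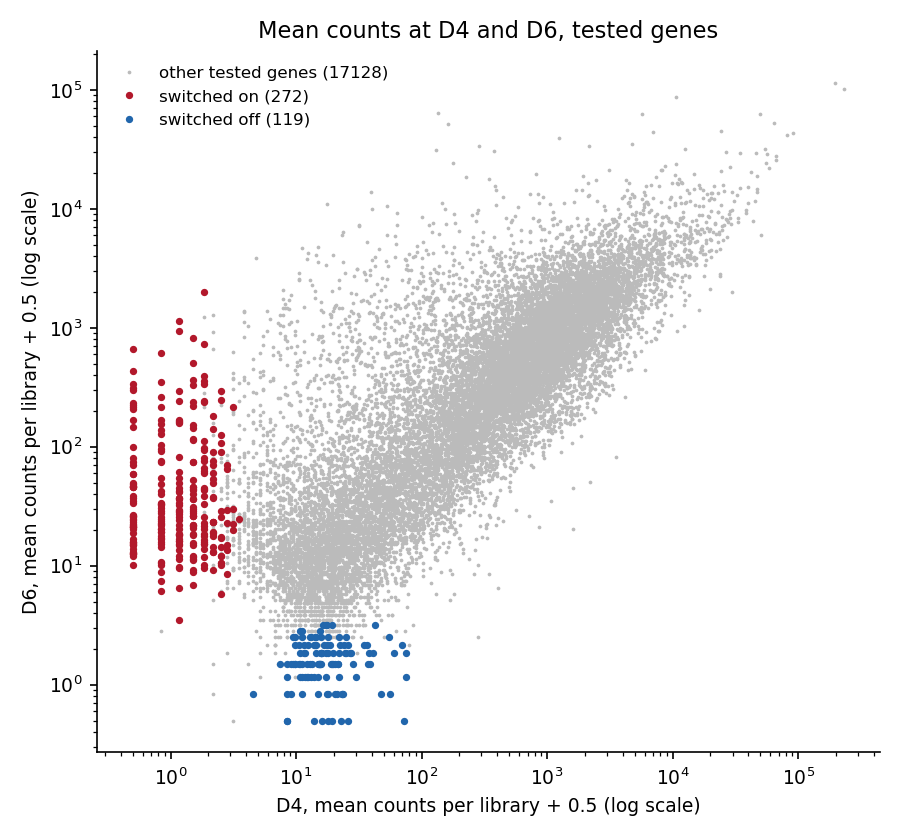
Mean counts per library at D4 (x axis) and D6 (y axis), each with 0.5 added and on a log scale, for the 17519 tested genes. The 272 genes switched on (red) reach up to 2354 counts in a D6 library. None of the 119 switched off (blue) had at least 100 counts in every D4 library.

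The gains ran to far higher folds than the losses. Among called genes, 3987 were at least 2-fold higher by the fitted value and 3222 at least 2-fold lower. At 8-fold the counts were 1306 and 223, at 32-fold 505 and 30, and at 128-fold 175 and 5. The same asymmetry showed in plain counts: 133 genes had at least 100 counts in every D6 library and at most 10 in every D4 library, against 3 genes the other way round. Those 3 were *Msx1*, a homeobox factor of dorsal and midline neural tissue, *Hk3*, a hexokinase, and the predicted gene *Gm38103*, named here because so few passed. *Msx1* had 404, 313 and 132 counts in the D4 libraries and 0, 6 and 0 at D6. *Hk3* had 194, 175 and 135 counts at D4 and 7, 7 and 0 at D6. Both were small parts of the tested genes with at least 100 counts in every library of a group, 10665 at D6 and 10692 at D4. Loss of a transcript from a high level to near 0 was thus rarer over this interval than gain from near 0 to a high level.

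**Figure D2:**
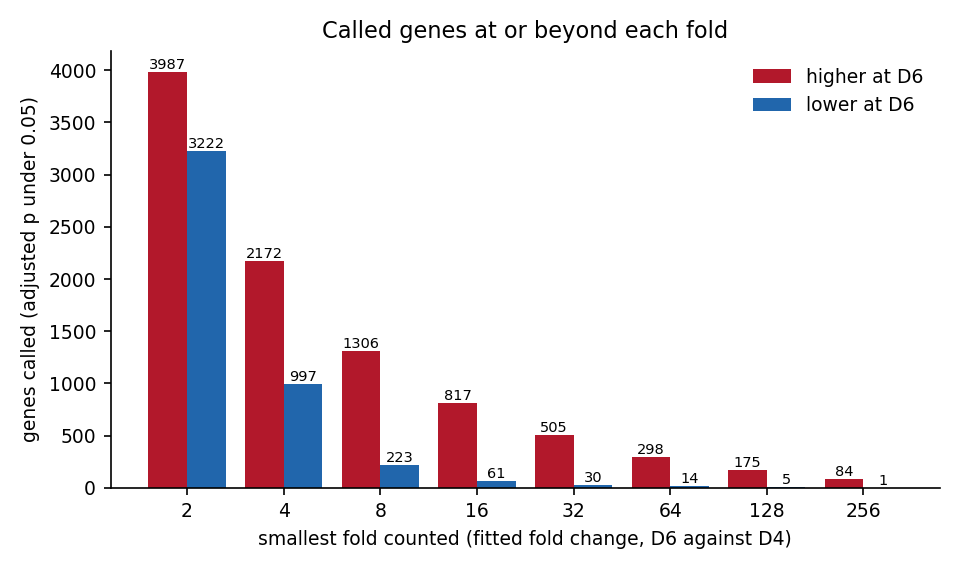
Number of genes called at adjusted p under 0.05 (y axis) whose fitted fold change reached at least the fold on the x axis, higher (red) or lower (blue) at D6. The directions are close at 2-fold, with 3987 and 3222 genes, and far apart at 64-fold, with 298 and 14.

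A gene was taken as switched on when all 3 D4 libraries held at most 3 counts, it passed the filter on low counts and it was called higher, and as switched off by the mirror rule. This contrast chose the genes, so their D4 and D6 values are a description. Of all 55400 genes, 33688 were at 3 counts or fewer in every D4 library and 34307 in every D6 library, with 31793 in both. Among tested genes, 272 (1.55%) were switched on and 119 (0.679%) switched off. A further 7 tested genes that lay at this floor at D4 and 26 that lay at it at D6 were not called. Genes that met the floor but failed the filter were not tested, so these sets do not hold every transcript that appeared or vanished. In 58 of the 272 and in 9 of the 119 the low group held no count at all. For these a fold is given as a lower bound against 3 counts over the group; otherwise the ratio of pooled counts, scaled for library size, comes with an exact binomial 95% interval that covers counting error only.

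The genes switched on reached well-measured levels, and those switched off did not start from them. Of the 272, 229 had at least 10 counts in every D6 library, 105 at least 30 and 47 at least 100. Of the 119, 62 had at least 10 counts in every D4 library, 8 at least 30 and 0 at least 100. The median level in the group where the gene was present was 1.87 CPM for genes switched on and 0.846 CPM for genes switched off, and 41 against 0 exceeded 10 CPM. Protein-coding genes made up 167 of the 272 (61.4%) and 62 of the 119 (52.1%), and 107 and 64 carried only predicted-gene or clone symbols.

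The gene that took the most D6 reads among those switched on was *Nyap2* (chr1:81076950-81341764, GRCm38), a phosphoprotein that links neuronal adhesion receptors to PI3 kinase. It had 0, 3 and 1 counts in the D4 libraries and 2354, 2012 and 1668 at D6, which is 133 ± 25.05 CPM (SD, n = 3) and a pooled ratio of 1832 [715 to 6728]. *Nwd2* followed with 2, 0 and 0 counts at D4 and 1187, 1164 and 1044 at D6, although a predicted gene on the opposite strand overlaps it and the counting strand is not given in the sources used here. *March4*, a membrane-bound ubiquitin ligase, went from 2, 0 and 0 counts to 965, 951 and 908. The rule that chose these 3 genes required low D4 and higher D6 counts, so the gap between the groups is a description.

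Hand-assigned roles for the 41 protein-coding genes with at least 100 counts in every D6 library placed 7 with adhesion and matrix, 7 with ion channels, 6 with enzymes, 5 with peptides and secreted proteins, 4 with synapse and release, 3 with receptors and transporters, 2 with signalling and scaffolds and 1 with transcription factors, while 6 had another or an uncertain role. The matrix and adhesion genes included *Tnr*, the perineuronal matrix protein tenascin-R, with 0 counts in all 3 D4 libraries and 759, 660 and 565 at D6, at least 803-fold higher. *Slitrk3*, a postsynaptic organizer, rose from 0 in every D4 library to 335, 204 and 160 counts, at least 283-fold. *Cntn4*, an axonal contactin, had 1, 2 and 1 counts at D4 and 353, 117 and 254 at D6. The D6 replicates of *Cntn4* spread widely.

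Ion channel genes that went from the floor to high counts were mainly potassium channels and their partners. *Kcnd2*, a subunit of the A-type current, had 2, 1 and 1 counts at D4 and 536, 300 and 350 at D6 (ratio 360 [140 to 1324]). *Kcnk9*, a background leak channel, had 1, 0 and 2 counts and then 403, 364 and 330 (444 [152 to 2157]). *Kcnh8*, of the ether-a-go-go-like group, went from 2 counts in each D4 library to 305, 280 and 290 (177 [81.1 to 484]). *Cacng2*, known as stargazin, which carries AMPA receptors to the synapse, had 1, 0 and 0 counts at D4 and 369, 381 and 291 at D6 (1265 [226 to 49995]). Its interval is wide because the ratio rests on 1 D4 count.

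Receptors, transporters and peptides formed the next group. *Htr1a*, an inhibitory serotonin receptor, was at 0 in all D4 libraries and at 408, 259 and 264 counts at D6, at least 377-fold higher. *Chrm2*, the muscarinic receptor of motor neurons and heart, had 1, 0 and 0 counts at D4 and 112, 175 and 95 at D6 (464 [82.8 to 18376]). *Slc17a6*, the vesicular glutamate transporter Vglut2, went from 0 in each D4 library to 118, 211 and 177 counts, at least 205-fold. *Cartpt*, a neuropeptide precursor, went from 0 to 317, 347 and 348 counts, at least 410-fold, and *Uts2b*, a urotensin-related peptide, from 0 to 119, 249 and 258, at least 253-fold. Genes of other lineages were in the set as well: *Crp*, the liver acute-phase protein, had 0, 2 and 1 counts at D4 and 349, 326 and 319 at D6, and *Afp*, the fetal liver and yolk sac protein, went from 0 to 23, 18 and 36.

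Transcription factors were few among the strongly switched genes. *Uncx*, a homeobox gene of somites and spinal interneurons, had 1, 2 and 3 counts at D4 and 175, 342 and 224 at D6 (150 [68.6 to 410]). *Pou4f2*, a POU factor of retinal and sensory neurons, went from 0 in each D4 library to 47, 26 and 66 counts, at least 56.3-fold. The motor neuron factors themselves were above the floor at D4 and so were not in the switched set.

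The clustered protocadherins, cell surface proteins that give single neurons an identity of their own, came on as a cluster. Of 13 tested members of the alpha cluster all 13 were called higher, with a median log2 difference of 6.33, and 10 met the rule for switching on. *Pcdha3* had 1, 1 and 2 counts at D4 and 373, 346 and 288 at D6 (306 [119 to 1125]), and *Pcdha12* had 0, 2 and 1 and then 244, 219 and 243. Alpha members share their last exons, so reads cannot always be given to 1 member and the 10 genes are not 10 independent events. All 21 tested beta members were also higher, with a median of 4.91, and 13 of 21 gamma members, with a smaller median rise.

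Some genes missed the rule by 1 or a few counts. *Rbfox1*, the neuronal splicing regulator, had 7, 3 and 3 counts at D4 and 4785, 3693 and 3055 at D6, a log2 difference of 10.04 ± 0.383 (SE). *Ptpro*, a receptor phosphatase of axons, had 4, 1 and 0 and then 1536, 1302 and 996 counts. *Grin2b*, an NMDA receptor subunit, had 0, 4 and 0 and then 263, 270 and 117. *Actl6b*, the neuronal actin-like subunit of the BAF chromatin remodeller, had 3, 5 and 2 counts at D4 and 88.4, 72.7 and 59.6 CPM at D6.

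The motor neuron microRNA miR-218 was represented through its 2 host loci, which lie inside *Slit2* and *Slit3*. Both loci give the same mature sequence, shown here in RNA letters from RefSeq with the seed, bases 2 to 8, in capitals, because miR-218 is known for its abundance in motor neurons.
mmu-miR-218-5p: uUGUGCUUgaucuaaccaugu
The sequence lies at chr5:48223966-48223986 (plus strand, *Mir218-1*) and at chr11:35616840-35616860 (plus strand, *Mir218-2*) of GRCm38. *Mir218-1* was switched on, from 0 counts in each D4 library to 12, 13 and 4 at D6, at least 11.7-fold, and *Mir218-2* rose from 2, 2 and 5 counts to 101, 183 and 170 (adjusted p = 1.4e-07). Poly(A)-selected libraries capture the precursor transcript and its host, not the mature microRNA, so these are levels of the loci. The host *Slit2*, a secreted axon guidance ligand, rose from 10.0, 12.3 and 15.1 CPM to 1300, 1225 and 1133 (log2 6.62 ± 0.174, adjusted p = 2.3e-11), and *Slit3* rose by 3.32 on the log2 scale.

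Genes came on at each of the later times. A gene switched on was dated to the first time at which all 3 untreated libraries exceeded 3 counts, and a gene switched off to the first time at which all 3 held 3 or fewer. By this measure 44 of the 272 (16.2%) dated to D4H8, 140 (51.5%) to D5, and the remaining 88 (32.4%), which had not met it by D5, were assigned to D6, although a few of them still had a D6 library at 3 counts or fewer. *Nyap2* was already at 36, 23 and 14 counts at D4H8 and at 455, 509 and 410 at D5. *Htr1a* still had 7, 14 and 8 counts at D5, and *Mgat4c*, a glycosyltransferase, had 0, 0 and 0 counts at D4H8, 0, 1 and 0 at D5 and 272, 178 and 199 at D6. Summed over the 272 genes, the level was 11.3 to 13.5 CPM at D4, 48.8 to 67.5 at D4H8, 426 to 464 at D5 and 1371 to 1619 at D6. The rule chose these genes for low D4 and higher D6 counts, so the gaps next to D4 and D6 are a description. The D4H8 and D5 libraries shared in the filter and the estimate of the spread, so the step between them is a description too. There the libraries did not overlap. Not every gene climbed to the end. *Crp* had 449, 357 and 235 counts at D5 and 349, 326 and 319 at D6, within the D5 range. *Slc6a5*, the glycine transporter of inhibitory interneurons, had 18, 31 and 17 at D5 and 15, 10 and 7 at D6.

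**Figure D3:**
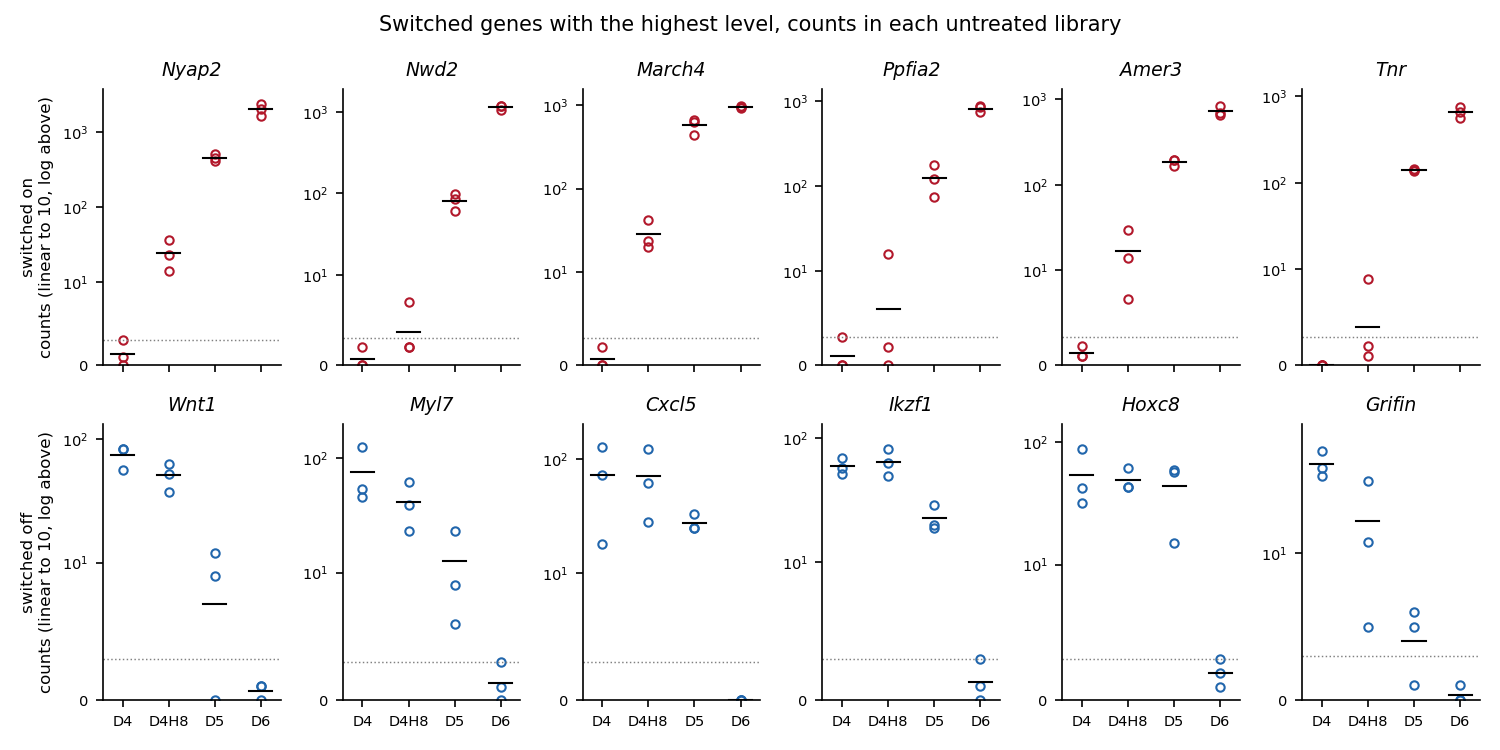
Counts in each untreated library (circles, 3 per time) at D4, D4H8, D5 and D6 for the first 6 genes by level among the protein-coding genes switched on (red) and off (blue), on an axis linear to 10 and logarithmic above. The bar marks the mean and the dotted line 3 counts; *Nyap2* climbs from at most 3 counts at D4 to at least 1668 in every D6 library, and *Wnt1* falls from at least 56 to at most 1.

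In the GSKJ4-treated D6 cultures, which this contrast did not use, 253 of the 272 genes (93.0%) were above 3 counts in all 3 libraries, including all 47 with at least 100 counts at D6. The other 19 were above 3 counts in at least 1 treated library. Of the genes switched off, 43 of 119 (36.1%) were at the floor in all 3 treated libraries. Of the remaining 76, 66 had at most 10 counts in any treated library, 48 exceeded 3 counts in 1 library alone, and the highest count was 27. The floor of 3 counts lies near these values, and treatment was not compared with control here.

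The genes switched off included signalling and patterning genes of the neural tube and immune genes, all of them at modest counts. *Wnt1*, the dorsal midline and midbrain mitogen, had 83, 83 and 56 counts at D4, 0, 12 and 9 at D5 and 1, 1 and 0 at D6 (ratio of D4 over D6 91.4 [25.0 to 759]). *Hoxc8*, a posterior Hox gene, had 89, 32 and 42 counts at D4 and still 15, 59 and 57 at D5, and then 1, 3 and 2 (22.4 [10.1 to 61.8]). *Foxn4*, which marks progenitors that choose between interneuron fates, had 27, 42 and 40 at D4, 39, 47 and 50 at D5 and 2, 3 and 0 at D6 (17.9 [7.46 to 56.4]). *Nkx2-1*, of the ventral forebrain, had 26, 25 and 19 counts and then 1, 0 and 0 (57.6 [10.0 to 2308]). The rule chose these genes for their low D6 counts, and the intervals show how little those counts fix the ratio.

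Among the immune genes, *Cxcl5*, a neutrophil chemokine, had 127, 72 and 18 counts at D4 and 0 in every D6 library, at least 59.5-fold lower. *Ikzf1*, the lymphoid factor Ikaros, had 70, 52 and 58 and then 0, 1 and 3 (37.0 [14.2 to 137]), and *Tnf* had 19, 19 and 12 and then 0, 2 and 0 (20.6 [5.41 to 175]). *Myl7*, the atrial myosin light chain, had 124, 54 and 46 counts at D4 and 1, 0 and 3 at D6. The lens crystallins *Cryge* and *Crygc* left from 16, 18 and 17 and from 7, 6 and 11 counts. In 12 of the 119 genes more than 60% of the D4 counts came from 1 library, as in *Izumo1r* with 7, 5 and 39 counts and *Zscan4b* with 1, 16 and 35, against 4 of the 272 genes switched on. The call of *Izumo1r* was lost without D4 replicate 3 (−1.50, adjusted p = 0.28) and, at larger differences of −3.18 to −2.81, without any single D6 replicate (adjusted p = 0.069 to 0.089). That of *Zscan4b* was lost without D4 replicate 3 (adjusted p = 0.074) and without any single D6 replicate (adjusted p = 0.051 to 0.054).

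Of the genes switched off, 116 (97.5%) dated to D6, 2 to D5 and 1 to D4H8. Their summed level was 121 to 134 CPM at D4, 98.8 to 122.7 at D4H8, 57.4 to 89.3 at D5 and 6.80 to 10.2 at D6. The sum was therefore lower at D5 than at D4 in every library, although D4 counts helped to choose these genes. By the dating rule, the 116 genes dated to D6 had more than 3 counts in at least 1 D5 library. The rule for switching off put every gene at the floor by D6.

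Functional classes were described with 34 gene lists that were chosen with earlier results of these data known. Each is read against the shares of all tested genes, 32.9% higher and 31.0% lower, and against their median of −0.04. In 20 of the 34 lists more members were higher than lower.

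**Figure D4:**
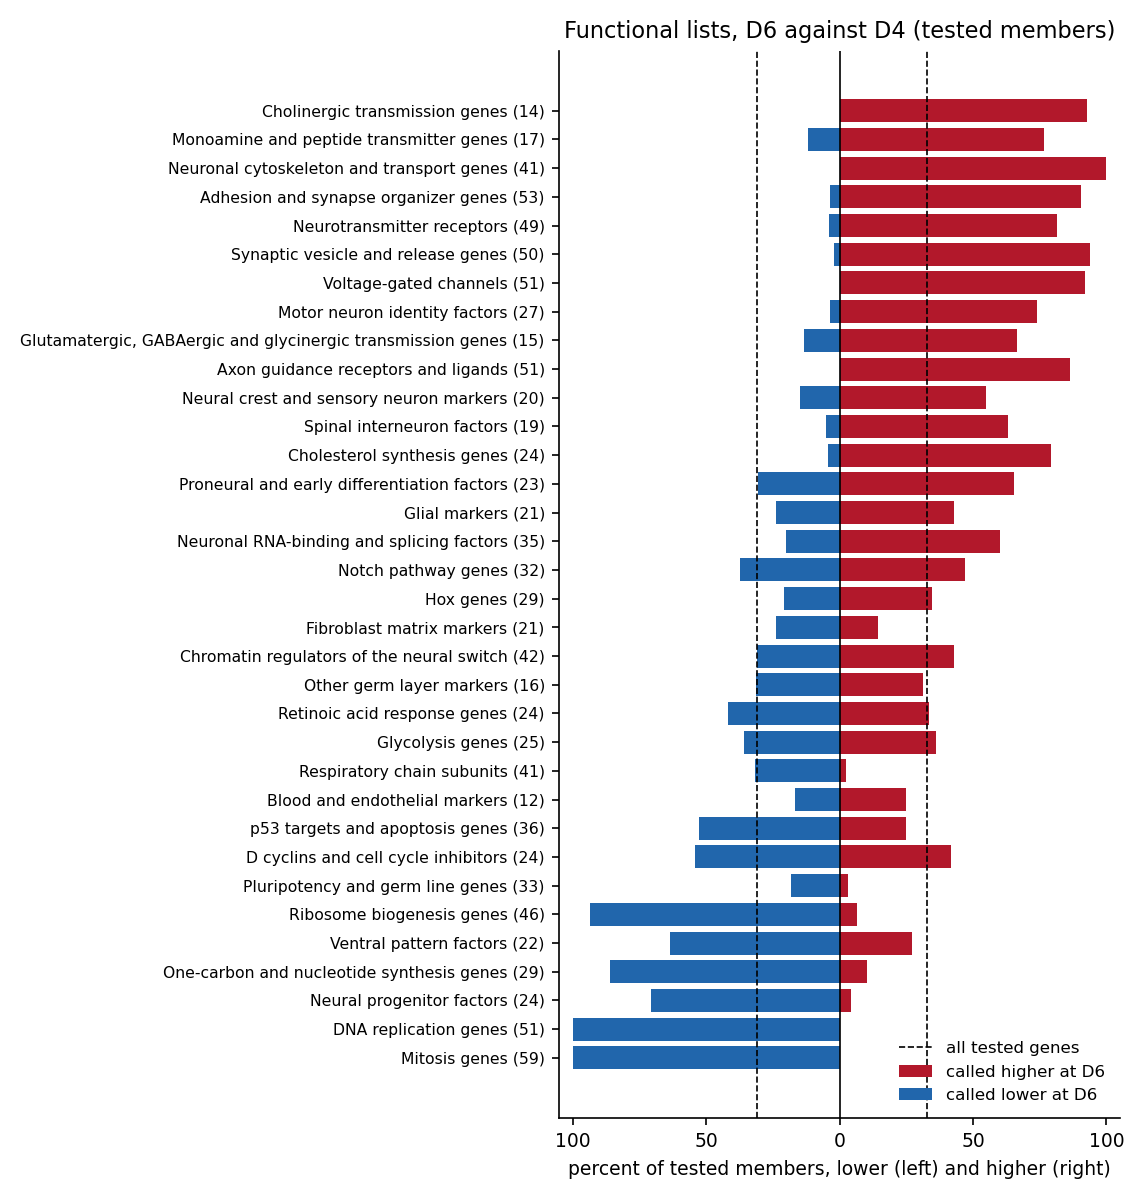
Percent of tested members called lower (blue, left) or higher (red, right) at D6 in each of the 34 lists, ordered by median log2 difference, with the number tested in brackets and dashed lines at the shares of all tested genes, 31.0% and 32.9%. The neuronal lists at the top reach 100% higher for the cytoskeleton, and DNA replication and mitosis at the bottom 100% lower.

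The neuronal cytoskeleton and transport list was gained as a whole. All 41 members were higher, with a median log2 difference of 4.25, and their summed level rose from 2451 to 2790 CPM at D4 to 42252 to 51189 CPM at D6. *Nefm*, the medium neurofilament that sets axon calibre, had 4.93, 11.6 and 5.85 CPM at D4 and 5563, 3383 and 3745 at D6 (log2 9.15 ± 0.443, adjusted p = 1e-09). *Mapt*, which encodes tau, rose from 2.22, 1.89 and 2.28 CPM to 1100, 927 and 731 (8.75 ± 0.216, adjusted p = 1.9e-11), and *Dcx*, the doublecortin of migrating neurons, from 5.65, 9.06 and 6.73 to 2552, 1935 and 1720 (8.18 ± 0.347, adjusted p = 3.7e-10). *Nefm* overlaps its neighbour *Nefl* on the opposite strand, so their reads may be shared. The smallest rise of the list was that of *Camsap2*, a microtubule minus-end protein, at 1.69.

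Within protein families of the cytoskeleton members moved both ways, as did all tested genes, with 32.9% higher and 31.0% lower. Among 14 tested alpha and beta tubulins 7 were higher (50%) and 5 lower (35.7%). The neuronal isotype *Tubb3* rose from 53.8, 101 and 50.7 CPM to 2860, 2486 and 2381 (log2 5.23), and *Tuba1a* from 642, 610 and 471 to 6152, 5698 and 5482 (3.33). *Tubb6* fell by 2.24, *Tuba4a* by 2.16 and *Tuba1b* by 1.29 on the log2 scale. Among 36 kinesins 14 were higher (38.9%) and 15 lower (41.7%), not far from those shares. The axonal transport motors *Kif5c* (42.9, 45.2 and 44.6 CPM at D4, 1526, 1230 and 1162 at D6) and *Kif1a* (4.43 on the log2 scale) rose, and the spindle motors *Kif11* (328, 301 and 275 CPM at D4, 18.8, 50.6 and 55.1 at D6) and *Kif15* fell by 2.86 and 3.03.

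Axon guidance and adhesion were gained next. Of 51 guidance receptors and ligands 44 were higher and 0 lower, with a median of 2.24. *Dcc*, the netrin receptor, rose by 6.39 and *Unc5c*, its repulsive partner, by 6.53, while *Ret*, the receptor for the motor axon factor GDNF, went from 26.6, 32.1 and 36.7 CPM to 205, 252 and 173 (log2 2.73). The semaphorin family had 16 of 20 tested members higher and 1, *Sema3b* (−0.94), lower, a call lost without D6 replicate 1 (−0.65) or D6 replicate 2 (−0.86), and 7 of 8 plexins were higher. Of 53 tested adhesion and synapse organizer genes 48 were higher and 2 lower, with a median of 4.19.

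The members of the adhesion list that fell were those of epithelial sheets. *L1cam*, which bundles axons, rose from 2.75, 2.92 and 2.87 CPM to 911, 604 and 600 (log2 7.95 ± 0.222, adjusted p = 2.6e-11), and *Cdh2*, N-cadherin, from 106, 94.2 and 89.6 to 315, 255 and 257 (1.51, adjusted p = 2.1e-06). *Cdh1*, E-cadherin, fell from 277, 221 and 365 CPM to 34.4, 74.5 and 127 (−1.87, adjusted p = 0.0015), and *Epcam* from 93.3, 91.3 and 122 to 11.6, 28.2 and 39.6 (−1.95, adjusted p = 0.00021). Both are also expressed by pluripotent cells, whose markers are taken up below.

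The machinery of transmitter release was gained across its parts. Of 50 synaptic vesicle and release genes 47 were higher and 1 lower, with a median of 3.44. *Snap25*, the presynaptic SNARE, rose from 1.40, 1.89 and 0.410 CPM to 277, 205 and 224 (adjusted p = 1.1e-09), and the calcium sensor *Syt1* from 0.580, 0.631 and 0.176 to 156, 116 and 99.1 (log2 8.02, adjusted p = 8.5e-10). The exception was *Sypl*, the synaptophysin-like protein of non-neuronal vesicles, which fell from 87.4, 71.3 and 77.3 CPM to 22.9, 31.0 and 33.1 (−1.44, adjusted p = 2.8e-06). Of 14 tested cholinergic genes 13 were higher and 0 lower, with a median of 4.97.

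For the motor neuron transmitter, *Chat*, which makes acetylcholine, went from 0.386, 2.35 and 0.468 CPM to 162, 131 and 112 (log2 7.01, adjusted p = 9.9e-09), *Slc18a3*, which loads it into vesicles, from 0.531, 2.47 and 2.28 to 583, 455 and 408 (8.13, adjusted p = 6e-10), and *Slc5a7*, which takes choline back up, from 0.435, 0.459 and 0.351 to 91.6, 123.4 and 96.4 (7.94, adjusted p = 2e-09). The nicotinic subunit gene *Chrna7* was the member not called, at −0.12 (adjusted p = 0.56). D4 replicate 2 held the highest *Chat* level of the D4 libraries and still lay far below the lowest D6 library.

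Genes of other transmitters were gained as well. Of 15 glutamatergic, GABAergic and glycinergic genes 10 were higher and 2, *Slc6a9* and *Slc1a3*, lower. Of 17 monoamine and peptide genes 13 were higher, with a median of 4.67. *Th*, tyrosine hydroxylase, rose from 0.242, 0.344 and 0.351 CPM to 77.0, 85.0 and 70.9 (log2 7.94, adjusted p = 3.3e-10), whereas *Ddc*, the next enzyme of that pathway, fell from 29.7, 38.2 and 31.4 to 11.6, 17.7 and 13.7 (−1.21, adjusted p = 0.0002). The second member that was lower was *Slc18a1*, a vesicular monoamine transporter, at −0.89. Its call was lost without D4 replicate 3 (−0.72), D6 replicate 1 (−0.82) or D6 replicate 2 (−0.90). The same held with all 21 libraries (−0.93) and with no filter on low counts (−0.89).

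Excitability genes rose widely. Of 51 tested voltage-gated channel genes 47 were higher and 0 lower, with a median of 3.41. *Scn9a*, a sodium channel, rose from 0.628, 1.09 and 0.585 CPM to 329, 229 and 250 (log2 8.45, adjusted p = 3.1e-10). Over the whole potassium channel family 46 of 69 tested members were higher and 9 lower. Members that fell included *Kcnj4* (−2.86), *Kcnk6* (−2.38) and *Kcnk1* (−1.74), so the direction was not shared by the family as it was by the list.

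Of 49 tested neurotransmitter receptor genes 40 were higher and 2 lower, with a median of 3.62. *Gria2*, the AMPA subunit that limits calcium entry, rose from 0.338, 1.204 and 0.234 CPM to 369, 318 and 236 (log2 9.03 ± 0.450, adjusted p = 1.3e-09), and 17 of 18 tested ionotropic glutamate receptor genes were higher. The serotonin-gated channel *Htr3a* had 21, 20 and 16 counts at D4 and 2, 3 and 3 at D6 (5.87 [2.78 to 14.2]). *Gabra4* had 25, 18 and 26 counts and then 5, 2 and 12 (−1.57, adjusted p = 0.021). Its call was lost without D4 replicate 3 (−1.46), D6 replicate 1 (−1.44) or D6 replicate 2 (−1.14), and with all 21 libraries (−1.61).

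Motor neuron identity factors were raised rather than switched on. Of 27 tested, 20 were higher and 1 lower, with a median of 2.56. *Isl1*, the LIM factor common to motor neurons, went from 10.2, 22.2 and 12.3 CPM to 551, 551 and 466 (log2 5.13, adjusted p = 1.9e-09), *Isl2* from 0.338, 0.860 and 0.644 to 89.2, 99.2 and 109 (7.35, adjusted p = 6.6e-10), and *Mnx1* from 11.1, 16.1 and 27.5 to 95.9, 137 and 89.9 (2.56, adjusted p = 3.9e-06). *Lhx3*, the partner of Isl1, rose by 1.80 (adjusted p = 0.00092). The largest rises of the list were those of *Esrrg* (7.91), a nuclear receptor of gamma motor neurons, *Runx1* (7.74) and *Aldh1a2* (7.49), the RA-making enzyme of limb-level motor neurons.

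*Etv1*, an ETS factor of motor pools, was the member that was lower, from 7.87, 9.29 and 8.14 CPM to 4.05, 5.15 and 3.98 (−0.94, adjusted p = 0.024). The call was lost without D4 replicate 2 (−0.87), D6 replicate 1 (−0.88) or D6 replicate 3 (−0.87), and with all 21 libraries (−0.98). Proneural and early differentiation factors moved both ways. *Neurog2* fell by 1.99, *Neurog1* by 2.38 and *Neurod4* by 3.07, and *Myt1l* (7.29), *Scrt1* (6.78) and *Ebf1* (6.68) rose. In all 15 of 23 tested were higher and 7 lower.

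Among RNA-binding and chromatin regulators, members with opposite roles moved in opposite directions. *Ptbp1*, the splicing repressor of dividing cells, fell from 755, 706 and 718 CPM to 135, 177 and 213 (−2.05, adjusted p = 1.1e-05), and *Elavl3*, a neuronal RNA stabilizer, rose from 18.2, 25.7 and 20.8 to 833, 661 and 628 (5.03, adjusted p = 9.3e-10). *Actl6a*, the BAF subunit of progenitors, fell from 189, 187 and 163 CPM to 60.03, 79.0 and 85.0 (−1.27, adjusted p = 1.7e-06) as *Actl6b* rose (8.61, adjusted p = 4.5e-10). In 2 further sets of BAF subunits, the progenitor form *Phf10* (−0.90) was lower and the neuronal forms *Dpf1* (3.49) and *Dpf3* (5.13) higher, and *Ss18* (−0.99) was lower and *Ss18l1* (2.90) higher. *Rest*, the repressor of neuronal genes outside neurons, fell from 93.2, 85.1 and 114 CPM to 21.1, 45.9 and 54.0 (−1.27, adjusted p = 0.0014). As whole lists the counts lay nearer to the background, with 21 higher and 7 lower of 35 RNA-binding genes and 18 and 13 of 42 chromatin genes.

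Cholesterol synthesis was the metabolic class that was gained. Of 24 genes 19 were higher, with a median of 1.12. *Hmgcs1*, an early enzyme of the pathway, rose from 459, 486 and 400 CPM to 1639, 1328 and 1236 (1.64, adjusted p = 7.9e-06), *Tm7sf2* rose by 2.41 and *Lss* by 1.83.

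The cell cycle was lost in full by direction though not to 0. All 51 DNA replication genes and all 59 mitosis genes were lower, with medians of −2.26 and −2.61, and 50 and 57 of them passed the test against a 2-fold change. Summed levels fell from 8306 to 8978 CPM at D4 to 1174, 2007 and 2279 CPM in the D6 libraries for replication, and from 11172 to 11891 to 1116, 2237 and 2635 for mitosis. D6 replicate 1 was the lowest in both sums. *Mki67*, the proliferation antigen, had 712, 653 and 634 CPM at D4 and 59.1, 112 and 134 at D6 (−2.71, adjusted p = 6.6e-07), and *Top2a* went from 1387, 1368 and 1134 to 85.8, 207 and 247. Both lists were therefore still measured at D6, most in replicates 2 and 3.

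The promoters of 4 of these genes are printed because the lists fell as a block and such promoters are known to share short elements. Each run holds 250 bases before to 50 bases after the gene start in RefSeq for GRCm38.p6, read 5′ to 3′ in the direction of the gene. Capitals mark, on either strand, the cell cycle homology region TTTGAA, the CCAAT box and the E2F sites TTTCGCGC and TTTGGCGC. *Hmmr* and *Ncapg* had the largest falls among mitosis genes with a promoter in the table, and *Clspn* and *Mcm10* among replication genes.
*Hmmr* (chr11:40733388-40733687, minus strand): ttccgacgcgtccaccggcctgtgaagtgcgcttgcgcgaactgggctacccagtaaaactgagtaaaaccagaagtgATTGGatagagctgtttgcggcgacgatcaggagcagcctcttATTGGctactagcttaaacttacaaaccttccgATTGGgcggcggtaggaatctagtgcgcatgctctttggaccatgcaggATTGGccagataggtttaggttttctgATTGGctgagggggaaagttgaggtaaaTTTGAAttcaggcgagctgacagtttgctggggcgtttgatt
*Ncapg* (chr5:45669675-45669974, plus strand): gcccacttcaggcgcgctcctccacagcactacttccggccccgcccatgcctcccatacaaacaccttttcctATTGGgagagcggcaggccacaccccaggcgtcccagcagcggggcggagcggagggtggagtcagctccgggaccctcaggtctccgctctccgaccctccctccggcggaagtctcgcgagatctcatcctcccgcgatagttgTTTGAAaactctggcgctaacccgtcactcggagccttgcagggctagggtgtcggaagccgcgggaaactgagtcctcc
*Clspn* (chr4:126556730-126557029, plus strand): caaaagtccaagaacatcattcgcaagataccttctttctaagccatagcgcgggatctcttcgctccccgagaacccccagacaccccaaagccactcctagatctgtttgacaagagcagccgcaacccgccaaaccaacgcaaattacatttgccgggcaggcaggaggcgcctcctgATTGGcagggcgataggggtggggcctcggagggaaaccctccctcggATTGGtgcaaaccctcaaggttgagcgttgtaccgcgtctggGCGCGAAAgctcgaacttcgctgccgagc
*Mcm10* (chr2:5012742-5013041, minus strand): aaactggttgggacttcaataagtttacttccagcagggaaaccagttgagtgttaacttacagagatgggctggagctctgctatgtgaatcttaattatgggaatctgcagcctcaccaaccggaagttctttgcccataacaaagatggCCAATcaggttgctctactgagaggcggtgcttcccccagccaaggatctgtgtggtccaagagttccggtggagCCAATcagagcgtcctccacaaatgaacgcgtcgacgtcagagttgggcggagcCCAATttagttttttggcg
*Hmmr*, a spindle and hyaluronan-binding protein, fell from 199, 156 and 150 CPM to 9.12, 19.3 and 24.7 (−3.25 ± 0.299, adjusted p = 4.7e-07), and *Ncapg*, a condensin subunit, from 209, 178 and 149 to 9.05, 24.96 and 26.4 (−3.15). *Clspn*, the checkpoint mediator claspin, fell from 147, 128 and 119 to 7.63, 19.0 and 22.3 (−3.01), and *Mcm10*, a replication initiation factor, from 156, 167 and 133 to 10.7, 21.8 and 25.3 (−2.98). Promoters were matched for 49 of 59 mitosis and 41 of 51 replication genes. TTTGAA was in 69.4% of the mitosis windows and 14.6% of the replication windows, against 17.9% of all 32851 promoters of this length. CCAAT was in 73.5% and 63.4% against 37.4%, and an E2F site in 6.12% and 26.8% against 0.813%. The 32851 promoters were not limited to tested genes or matched for base composition. These are matches of letters and say nothing of binding. Of the protein-coding genes switched on and off, 67.7% and 71.0% had a promoter in the table, under the 80% needed, so a search there would be void and none is given.

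Regulators of the cycle did not all fall. *Ccnd1* and *Ccnd2*, the D cyclins that start the cycle, fell from 146, 130 and 112 CPM to 10.5, 11.2 and 16.8 (−3.33, adjusted p = 5.2e-09) and from 988, 803 and 817 to 76.8, 93.6 and 110 (−3.22, adjusted p = 7.7e-09). *Cdkn1c*, the inhibitor p57 of cells that leave the cycle, rose from 45.4, 58.5 and 66.1 CPM to 414, 423 and 432 (2.90, adjusted p = 1.1e-08), and *Cdk5r1*, the activator of the neuronal kinase Cdk5, by 5.97 (adjusted p = 1.5e-10). Over the list of D cyclins and inhibitors 10 were higher and 13 lower of 24.

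The supply side of growth was lost with the cycle. Of 46 ribosome biogenesis genes 43 were lower and 3, *Mycl*, *Myc* and *Rrn3*, higher, with a median of −1.41. *Ncl*, nucleolin, fell from 3180, 1978 and 1866 CPM to 409, 574 and 585 (−2.16, adjusted p = 1.3e-06). *Myc* had 24.1, 18.8 and 16.7 CPM at D4 and 47.2, 26.8 and 24.5 at D6 (0.72, adjusted p = 0.015). Its call was lost without D4 replicate 2 (0.68), D4 replicate 3 (0.58) or D6 replicate 1 (0.37), and with all 21 libraries (0.69). *Rrn3* (0.39) lost its call under upper-quartile scaling (0.23), with all 21 libraries (0.35) and without D4 replicate 1 (0.34), while *Mycl* kept a rise of 1.04.

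Cytosolic ribosomal proteins were lower in 83 of 85 tested genes and higher in 0, with a median of −1.52, and took 8.41%, 7.003% and 5.34% of the counts at D4 and 1.85%, 2.70% and 2.45% at D6 (exact permutation test, two-sided p = 0.1, the smallest that 3 against 3 libraries allow). Many of these genes have near-identical copies in the genome, so single members are uncertain. Of 78 mitochondrial ribosomal protein genes 61 were lower and 2 higher. One-carbon and nucleotide synthesis had 25 of 29 genes lower and 3 higher, with a median of −1.68. *Phgdh*, the first enzyme of serine synthesis, fell from 298, 329 and 182 CPM to 20.8, 44.4 and 47.9 (−2.84, adjusted p = 2.6e-06), and *Aldh1l2*, a folate enzyme of mitochondria, rose by 2.46 (adjusted p = 0.00024).

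Progenitor and patterning factors fell in most but not all members. Of 24 tested progenitor factors 17 were lower and 1 higher, with a median of −1.69. *Pax6* went from 109, 68.3 and 82.6 CPM to 1.55, 4.24 and 2.94 (−4.89, adjusted p = 2.8e-08), while *Sox2* went from 120, 117 and 170 to 19.2, 44.9 and 51.2 (−1.82, adjusted p = 0.00026). *Nes*, the intermediate filament nestin used as a progenitor marker, was not called, at 157, 118 and 108 CPM and then 125, 139 and 162 (0.16, adjusted p = 0.5). *Vim*, vimentin, rose from 305, 393 and 275 to 707, 674 and 805 (1.17, adjusted p = 0.0011).

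Of 22 ventral pattern factors 14 were lower and 6 higher, with a median of −1.57. *Nkx2-9*, of the most ventral progenitors, fell from 70.8, 95.4 and 96.5 CPM to 0.945, 1.11 and 1.83 (−6.07, adjusted p = 4.1e-09), and *Gli1*, a readout of Sonic hedgehog signalling, from 108, 105 and 107 to 6.08, 15.8 and 12.7 (−3.22). *Nkx6-1*, which motor neurons keep, rose from 73.9, 79.0 and 103 to 659, 341 and 433 (2.49, adjusted p = 7.4e-06), and *Irx5* (4.34) and *Irx3* (1.69) rose too. The list therefore held genes moving both ways at sizes far above their errors.

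Signalling pathways whose inputs changed in the medium showed both directions. Of 24 RA response genes 8 were higher (33.3%) and 10 lower (41.7%), not far from the shares of all tested genes, with a median of −0.00. *Cyp26a1*, which degrades RA and is induced by it, fell from 201, 167 and 209 CPM to 2.97, 7.62 and 5.49 (−5.16, adjusted p = 2.4e-09), and *Stra8*, another RA-induced gene, from 694, 614 and 711 to 19.11, 94.7 and 87.9 (−3.32, adjusted p = 8.6e-05), while the receptor *Rxrg* rose by 6.55. Among 32 Notch pathway genes 15 were higher and 12 lower, a balance that turned to 14 and 15 under upper-quartile scaling. *Hes5*, the Notch target that keeps progenitors, fell from 7.39, 14.6 and 17.7 CPM to 0.608, 0.717 and 0.849 (−4.17, adjusted p = 6.2e-06), and *Hes1* from 46.0, 44.2 and 45.7 to 10.5, 13.9 and 16.9 (−1.72), against a rise of *Dner*, a neuronal Notch ligand, by 7.69. Of 11 tested Wnt ligands 7 were lower and 2, *Wnt4* and *Wnt5a*, higher, and of 10 Frizzled receptors 7 were lower and 2, *Fzd1* and *Fzd3*, higher. The call of *Fzd3* (0.49) was lost under upper-quartile scaling (0.34), without any single D4 replicate (0.38 to 0.53) and without D6 replicate 1 (0.31), leaving 1 Frizzled gene higher. With all 21 libraries the *Fzd3* call was lost too (0.46).

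The Hox genes had no common direction, with 10 higher and 6 lower of 29 tested, a share of higher genes near that of all tested genes. *Hoxb1*, of the hindbrain, fell from 44.8, 44.0 and 51.1 CPM to 0.743, 1.63 and 1.70 (−5.09), while *Hoxa6* (3.60) and *Hoxc6* (2.34) rose. Among the more posterior members *Hoxb9* (−2.47) and *Hoxc9* (−2.26) were lower together with *Hoxc8*. The call of *Hoxc9* was lost without D6 replicate 1 (−1.70, adjusted p = 0.067) or D6 replicate 3 (adjusted p = 0.072), at differences of similar size. With all 21 libraries that call was lost too (−2.30). Glycolysis had 9 genes higher and 9 lower of 25, or 9 and 10 under upper-quartile scaling. These shares, 36% each way, lay near those of all tested genes. Its members moved both ways: *Hk1* (2.80), *Pfkp* (3.99) and the neuronal enolase *Eno2* (2.57) rose, and *Slc2a1* fell by 2.17 and *Eno1*, which has near-identical copies, by 1.13. Respiratory chain subunits had 13 of 41 lower and 1 higher, a count of lower genes that was 8 without D4 replicate 1, 22 without D4 replicate 3 and 7 without D6 replicate 1. Of 36 p53 target and apoptosis genes 9 were higher and 19 lower.

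Markers of other cells were present at both times and their part in the results above was not tested. Of 33 pluripotency and germ line genes 6 were lower and 1, *Fgf5*, higher. The lower count was 17 with no filter on low counts, 11 with the 6 libraries alone and 3 without D4 replicate 2 or D6 replicate 1, and the higher count was 0 without D4 replicate 2, D4 replicate 3 or D6 replicate 2 and 2 without D6 replicate 1. Their summed level was 1006 to 1470 CPM at D4, and 105, 498 and 473 CPM in the D6 libraries. *Pou5f1*, Oct4, had 14.7, 30.7 and 35.0 CPM at D4 and 3.78, 29.2 and 32.1 at D6 (−0.30, adjusted p = 0.72), and *Nanog* had 19.3, 62.0 and 53.4 and then 4.93, 30.1 and 29.0 (−1.07, adjusted p = 0.2). D6 replicate 1 was the lowest library for both, and D6 replicates 2 and 3 lay within the range of D4.

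The neural crest and sensory list had 11 of 20 genes higher and 3 lower, and its sum rose from 89.0 to 119 CPM at D4 to 1135 to 1325 at D6. Its largest contributor at D6 was *Ngfr*, the p75 neurotrophin receptor that young motor neurons also carry, at 4.20, 6.54 and 5.85 CPM and then 640, 575 and 466 (log2 6.67, adjusted p = 4.3e-10). Spinal interneuron factors were higher in 12 of 19 and lower in 1, *Wt1*, but their sum stayed small, 45.0 to 74.4 CPM at D4 and 103 to 158 at D6. Glial markers had 9 higher and 5 lower of 21, with a median of 0.76. Their summed level was lower, 474 to 565 CPM at D4 and 264 to 306 at D6. *Gja1*, the connexin of radial glia and astrocytes, fell from 271, 192 and 207 CPM to 8.37, 17.6 and 25.1 (−3.71, adjusted p = 2e-07). This gene held much of the D4 sum, so the lower sum does not stand for the list.

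Fibroblast matrix markers, which the feeder layer would also carry, had 3 of 21 higher and 5 lower, and their sums overlapped, 581 to 938 CPM at D4 and 369 to 904 at D6. *Dcn*, decorin, rose from 2.22, 3.56 and 3.04 CPM to 31.2, 39.2 and 43.9 (3.70, adjusted p = 1.7e-07). Of 12 tested blood and endothelial markers 3 were higher and 2 lower, the latter 1 without D4 replicate 2, D4 replicate 3 or D6 replicate 1, with sums of 48.7 to 103 and 36.4 to 67.7 CPM. Of 16 tested markers of other germ layers 5 were higher and 5 lower, with sums of 114 to 132 and 173 to 221 CPM.

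A set of 45 genes was held, meaning that the 95% interval of the fold lay within 1.2-fold in either direction. *Ankrd17* had 299, 293 and 324 CPM at D4 and 326, 302 and 309 at D6 (log2 0.03), and *Nras* had 225, 210 and 188 and then 219, 200 and 216 (0.03, or −0.12 under upper-quartile scaling). The median interval reached 0.49 either side on the log2 scale, so most uncalled genes could have changed by an amount this design did not resolve.

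Gene structure differed between what was gained and what was lost. The span of a gene on the genome had a median of 24.8 kb over tested protein-coding genes, 33.6 kb over those higher and 22.5 kb over those lower. It was 45.3 kb for coding genes switched on, 135 kb for the 41 strongly switched ones and 7.72 kb for those switched off. Genes over 100 kb made up 15.1% of tested coding genes, 65 of 167 switched on (38.9%) and 0 of 62 switched off. Among 198 genes over 500 kb 78.8% were higher and 10.1% lower, with a median log2 difference of 2.83, against 28.2% and 32.4% of 1667 genes under 5 kb. Genes over 100 kb took 7.91%, 8.70% and 9.69% of the counts at D4 and 16.4%, 14.8% and 14.9% at D6 (exact permutation test, two-sided p = 0.1, the smallest possible). The calls were not adjusted for transcript length.

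**Figure D5:**
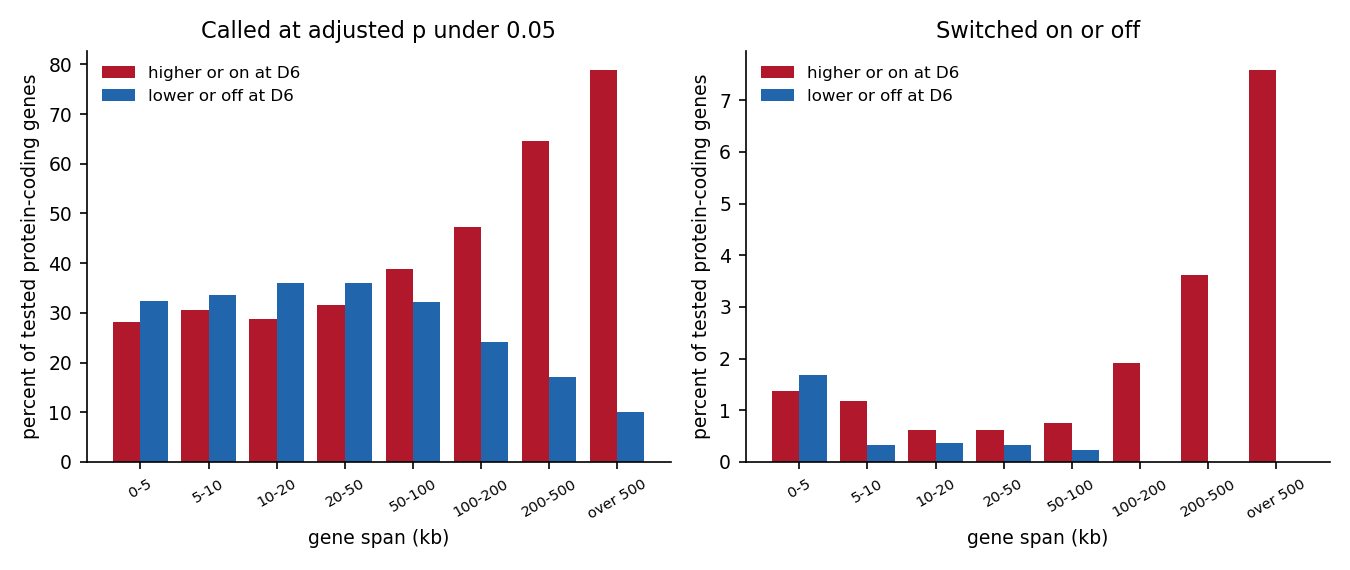
Percent of tested protein-coding genes (y axis) called higher or lower (left panel) and switched on or off (right panel) in classes of gene span in kb (x axis), red for higher or on and blue for lower or off at D6. The share called higher reaches 78.8% over 500 kb, where 10.1% are lower, and no gene over 100 kb is switched off.

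Classes of transcript differed too. Of 14516 tested protein-coding genes 35.2% were higher and 32.4% lower, and of 1437 long noncoding genes 29.4% and 16.8%. Of 972 pseudogenes 9.47% were higher and 39.9% lower, and such copies may share reads with their parent genes. *Meg3*, an imprinted long noncoding RNA, rose from 421, 378 and 338 CPM to 3552, 2702 and 2507 (2.95, adjusted p = 3e-09). The number of genes with more than 3 counts was 19179 to 19503 in the D4 libraries and 18631 to 19170 in the D6 libraries (exact permutation test, two-sided p = 0.1, the smallest possible), and the 10 most abundant genes took 5.29% and 4.31% of counts on average (p = 0.2 by the same exact test). The number of genes over 3 counts rises with depth, which was larger at D4 on average, and it was not corrected for depth. All 3 D4 libraries lay above all 3 D6 libraries. Whether the number of genes in use differed between the 2 times was therefore not resolved. Which genes they were and how strongly they were read differed as described.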

How the data were processed

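Poly(A)-selected RNA was sequenced by the authors. The study's methods name Fastp for trimming, HISAT2 with mm10 for alignment and HTSeq for the counting of reads per gene. The deposited values were whole-number counts, not normalized, and the counting strand is not given in the sources used here. A second table deposited by the authors held FPKM values, which scale by gene length and depth and were not used here. All 21 sample columns were matched to a label by name. Symbols and coordinates came from GENCODE M21 (GRCm38), where 55140 of 55400 identifiers matched and 260 did not.

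Counts were fitted with edgeR 4.0.16 in R 4.3.3. The design had 1 term per group over the 12 untreated libraries, with TMM scaling, which also gave the CPM, filterByExpr at a minimum count of 10, and glmQLFit followed by glmQLFTest. The test against a 2-fold change used glmTreat. Adjusted p-values are Benjamini-Hochberg values over all 17519 tested genes. The limit for a call was 0.05. The labels number the cultures as biological replicates, and each group has 3. The fits were tested on simulated data before use. Genes at 3 counts or fewer in every library of a group were taken to be at the floor. Lower bounds for groups with no count used 3 counts over the group. Binomial intervals and bounds cover counting error only. Placing list members with no count at D4 or D6 at their bounds left every list median unchanged to 2 decimals.

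Named genes were those highest by level among protein-coding switched genes, those with the largest log2 differences among called genes and in each list, exceptions of a list, and lineage markers. The members of the sets and the 34 lists were chosen with earlier results of these data known. Roles of the strongly switched genes and genes named beyond this rule, among them the genes at the edge of the floor, the miR-218 loci and single family members, were chosen after their values were seen. Some genes that met these rules are not reported here. Promoter and microRNA sequences came from RefSeq tables for GRCm38.p6.

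Alternatives were DESeq2 1.42.0, scaling by RLE or by the upper quartile, a fit with no filter on low counts, a minimum of 10 counts in all libraries, the 6 libraries alone, all 21 libraries, a replicate block, other floors and leaving out each replicate. Summaries and figures used Python 3.11.15 with pandas 2.3.3, scipy 1.17.1 and matplotlib 3.10.9.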

Additional observations from a re-analysis of the deposited data

How the results depend on the processing

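The counts of higher and lower genes stayed within 1.5 times of the values given under all alternatives, from 4663 to 6059 higher and from 4645 to 6342 lower, and so did the counts past a 2-fold change, from 2038 to 3085 higher and 1229 to 2149 lower. The sizes of the switched sets depended on the rule itself. Genes switched on numbered 584 with DESeq2, of which 270 were shared with the 272, 686 without a filter on low counts, 58 with a floor of 0 counts, 751 with a floor of 10 and 304 to 425 when 1 library was left out. Genes switched off numbered 326 with DESeq2, of which 112 were shared with the 119, 422 without a filter, 49 with the 6 libraries alone, 9 with a floor of 0, 451 with a floor of 10, and 136 to 266 when 1 library was left out, the most without D6 replicate 3 (266) and D6 replicate 2 (220). A filter of at least 10 counts in every library gave 0 for both, since it removes every gene at the floor before testing. Leaving out a library loosens the floor because 2 libraries have to meet it. Genes held within 1.2-fold were 45, but 7 with the 6 libraries alone, 4 with all 21, 1 without a filter and 2 to 15 when 1 library was left out, so this set is small and unstable.

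Libraries with the same replicate number did not deviate together (correlations −0.006, 0.017 and 0.09), so the numbers were not taken to pair D4 with D6. With a replicate block 5894 genes were higher, 5778 lower, 3027 and 1961 past a 2-fold change, 272 switched on and 120 switched off, of which 271 and 117 were shared, 55 were held, and 19 lists had more members higher than lower. The block moved the count of lower pluripotency genes from 6 to 17.

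Of 204 named genes that were called, 193 kept their call under every alternative that tested them. The other 11 were *Etv1*, *Fgf5*, *Fzd3*, *Gabra4*, *Hoxc9*, *Izumo1r*, *Myc*, *Rrn3*, *Sema3b*, *Slc18a1* and *Zscan4b*. *Nanog* became called as lower with the replicate block (−1.27) and without a filter (−1.08). No called gene among those named changed sign. Upper-quartile scaling turned the balance of higher and lower genes over all tested genes and in the Notch list, and that in glycolysis from equal counts to 9 and 10. A filter of at least 10 counts in every library lowered the counts of lists gained from low levels, for example from 48 to 19 for adhesion and from 40 to 18 for receptors, because their members were then not tested. Counts thinned to the shallowest library gave 308 genes switched on and 120 switched off.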
